A study of Mus musculus with 69 samples.

Results

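The long FMRP target mRNAs of neurons are 40 genes whose brain transcripts, most of them large, are known to bind FMRP, the RNA-binding protein encoded by Fmr1. They were taken by symbol from commonly cited FMRP targets, leaving out neurotransmitter receptors, channels of the plasma membrane, chromatin genes and genes of the mTOR pathway. No measured value is part of that rule, but the members were chosen with earlier results of these data known. The counts of members below are therefore not those of a list chosen blind to the data. All 40 were found among the 17634 genes of the count table, and all 40 passed the filter on low counts in each of the 13 comparisons.

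The data were 69 libraries of ribosome-bound RNA, obtained by the RiboTag method from the cortex of mice. In a RiboTag mouse, Cre recombination puts an HA tag on the ribosomal protein RPL22, so that an antibody to HA pulls down ribosomes, with the mRNA they carry, from the cells that express Cre. All mice carried the tagged Rpl22HA/HA allele and were 70 to 100 days old. Cre was driven by PV-Cre, which marks fast-spiking inhibitory interneurons, or by Camk2a-Cre, which marks excitatory neurons, and each class came as WT or Fmr1 KO, of both sexes. Primary visual cortex (V1) and primary somatosensory cortex (S1) were dissected from the same animals, so that 32 of 37 animals gave both areas. PV neurons had 10 libraries for each genotype and area. Camk2a neurons had 8 WT and 6 KO libraries of V1, and 8 WT and 7 KO libraries of S1. A change in ribosome-bound mRNA can come from the amount of an mRNA or from its ribosome load, and fewer cells of a type and less RNA per cell cannot be told apart in pulldowns of bulk tissue.

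FMRP is a translational repressor that associates with polyribosomes and, in crosslinking studies of brain, was found mostly along coding sequences, with a preference for long neuronal transcripts. Its loss causes fragile X syndrome. Many of its targets encode the large proteins that hold an axon and a synapse together: spectrin and ankyrin of the membrane skeleton, microtubule linkers, motors, presynaptic scaffolds and giant ubiquitin ligases. FMRP targets are cited in part for short motifs in the RNA, among them AGGA and TGGA in DNA letters.

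Most members were far longer than other genes. The transcript with the longest coding sequence had a median of 11533 nt over the 40 members, against 3055 nt over 14640 genes with a coding transcript. Of the members 30 exceeded 8 kb. The shortest, that of Bcan at 3141 nt, was longer than only 51.7% of those of all these genes. Coding sequences ran from 2310 nt for App, the amyloid precursor protein, to 23151 nt for Dst, a cytoskeletal linker of the plakin family, with a median of 8641.5 nt against 1413 nt. Members had a median of 44.5 exons, against 9. Length was part of the choice of members and is given as a description. Density of the motifs was not set apart in the same way: AGGA and TGGA together occurred 17.5 times per kb of coding sequence in the median member (range 12.6 to 30.6) and 16.2 times per kb in the median gene.

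Stretches of 120 coding bases are shown for 5 of the members called in a genotype comparison below. Other called members, Ank3 and Apc among them, are not shown. Each is the stretch within 1 exon that held the gene's most copies of AGGA or TGGA on the coding strand (capitals, overlapping copies run together). They show the local setting of these letters in mRNAs that differed between genotypes, not measured FMRP sites. Sequences and positions are from GENCODE M21 on GRCm38 (mm10).
Ank2: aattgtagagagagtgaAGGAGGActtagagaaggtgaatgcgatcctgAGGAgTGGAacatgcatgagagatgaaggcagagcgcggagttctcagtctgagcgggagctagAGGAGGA
Apc2: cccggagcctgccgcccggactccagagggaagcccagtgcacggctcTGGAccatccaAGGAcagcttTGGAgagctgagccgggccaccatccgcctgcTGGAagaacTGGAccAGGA
Herc1: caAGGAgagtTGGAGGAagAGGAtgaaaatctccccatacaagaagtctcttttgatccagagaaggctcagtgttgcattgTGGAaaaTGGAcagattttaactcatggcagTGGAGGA
Pclo: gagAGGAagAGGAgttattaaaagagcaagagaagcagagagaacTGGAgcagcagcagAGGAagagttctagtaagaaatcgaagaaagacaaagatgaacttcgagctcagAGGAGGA
Adgrb2: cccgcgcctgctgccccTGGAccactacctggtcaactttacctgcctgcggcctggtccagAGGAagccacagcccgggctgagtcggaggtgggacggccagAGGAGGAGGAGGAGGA

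The Ank2 stretch lies in exon 38 on the minus strand (chr3:126947465-126947584), that of Apc2 in exon 4 on the plus strand (chr10:80302372-80302491), that of Herc1 in exon 34 on the plus strand (chr9:66441906-66442025), that of Pclo in exon 5 on the plus strand (chr5:14676273-14676392) and that of Adgrb2 in exon 1 of its listed transcript on the plus strand (chr4:129992314-129992433). The Herc1 stretch held 8 copies, and 0.39% of adjoining 120-base coding stretches of all genes held at least as many. The Adgrb2 stretch held 7, which 0.917% of all stretches matched or exceeded, and those of Ank2, Apc2 and Pclo held 6 each, which 2.34% did. Being the richest of each gene, they are not typical stretches of these mRNAs. A long coding sequence holds many stretches, so low shares can come from that choice alone.

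Fmr1 followed the genotype labels in every library. It had 44.8 ± 3.99 CPM (SD, n = 10; counts scaled to the library's size) in WT PV neurons of V1 and 11.01 ± 2.35 (n = 10) in KO. In Camk2a neurons of V1 it had 80.3 ± 7.07 (n = 8) in WT and 8.16 ± 1.47 (n = 6) in KO. Some libraries did not match other labels: 6 libraries of 3 animals (PV animal 11, Camk2a animals 16 and 23) had Y-linked genes against the labelled sex, and 7 libraries of 4 animals (PV animals 9, 22 and 24, Camk2a animal 24) lay on the other area's side of a score of area genes. Camk2a animals 3 (KO), 18 and 19 (both WT) had summed PV marker levels of 718.1 to 1824.3 CPM, against 254.3 to 448.3 CPM in the other 23 Camk2a libraries. The KO and WT comparisons within a class are given with and without them, and so are some of the other results. PV markers summed to 9807.8 to 12368.6 CPM in PV libraries, and excitatory markers to 9154.8 to 11382.2 CPM in Camk2a libraries against 1029.5 to 2073.6 CPM in PV libraries. Total counts per library ran from 27.64 M to 49.11 M.

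In excitatory neurons of S1, 9 of the 40 long targets were higher on KO than on WT ribosomes and most others leaned the same way. The difference was positive for 37 of 40 members, with a median of 0.21 on the log2 scale, while the median of all 15691 genes tested was within 0.01 of 0 and 49.7% of them were positive. At an adjusted p under 0.05 (edgeR quasi-likelihood test, adjusted over all genes), 9 members were higher and 0 lower, where 1.99% of all genes tested were called higher. The 9 were the ankyrins Ank2 and Ank3, the microtubule and actin genes Map1a, Apc, Apc2 and Myh10, the presynaptic scaffold Pclo, and the ubiquitin ligases Herc1 and Huwe1.

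Ank3 encodes ankyrin-G, which anchors sodium channels at the axon initial segment. Its S1 level ran from 274.2 through a median of 297.1 to 329.4 CPM in 8 WT Camk2a libraries, and from 398.3 through 434.4 to 501.7 CPM in 7 KO libraries. The groups did not overlap. The log2 fold change was 0.57 ± 0.0657 (SE), a ratio of 1.49, with an adjusted p of 3.82e-04 by edgeR. Ank2 encodes ankyrin-B, which links spectrin to membrane proteins along the axon. Its values of 402.7, 463.0 and 531.8 CPM (lowest, median and highest) in WT were all below the 544.0, 590.3 and 745.1 CPM in KO, and its log2 fold change was 0.38.

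Apc binds microtubule plus ends and is part of the complex that degrades beta-catenin. Its WT libraries of S1 held 235.6 to 307.8 CPM (median 268.1) and its KO libraries 322.4 to 369.2 CPM (median 353.8), again without overlap. The log2 fold change was 0.42 ± 0.0678 (adjusted p = 0.00308, edgeR). Its neuronal paralogue Apc2 overlapped between groups, at a median of 124.0 CPM in WT and of 157.4 CPM in KO (141.6 to 188.6), and rose 1.25-fold. Myh10, a nonmuscle myosin, rose 1.22-fold and Map1a, a dendritic microtubule-associated protein, 1.23-fold. All 7 KO libraries stood above the WT mean for each of these genes. The other members of the group of microtubule and actin linkers, Map1b, Map2, Macf1 and Dst, were not called, with differences from 0.10 for Map1b to 0.31 for Dst (adjusted p = 0.0560).

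Pclo encodes piccolo, a giant scaffold of the presynaptic active zone. Its level was 211.7 to 326.0 CPM (median 254.4) in WT libraries of S1 and 327.4 to 434.7 CPM (median 352.0) in KO, so that the highest WT and the lowest KO library nearly met. The log2 fold change was 0.53 ± 0.104 (adjusted p = 0.0117, edgeR). Its partner Bsn and the vesicle-associated Dmxl2, with differences of 0.35 and 0.31, had adjusted p of 0.0560 and 0.0523 (edgeR). Members without a call are named here after their values were seen, for their role or their closeness to the threshold. Herc1, a HECT-type ubiquitin ligase of the same giant family as Herc2, went from 177.1 to 262.7 CPM (median 201.8) in WT to 251.9 to 293.2 CPM (median 279.0) in KO. The groups overlapped in that range, and the log2 fold change was 0.43 ± 0.0870 (adjusted p = 0.0132, edgeR). Huwe1, an X-linked HECT ligase, rose 1.21-fold, and the remaining 4 ligases had positive differences without a call, at 0.35 for Birc6 and 0.30 for Herc2.

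**Figure D1:**
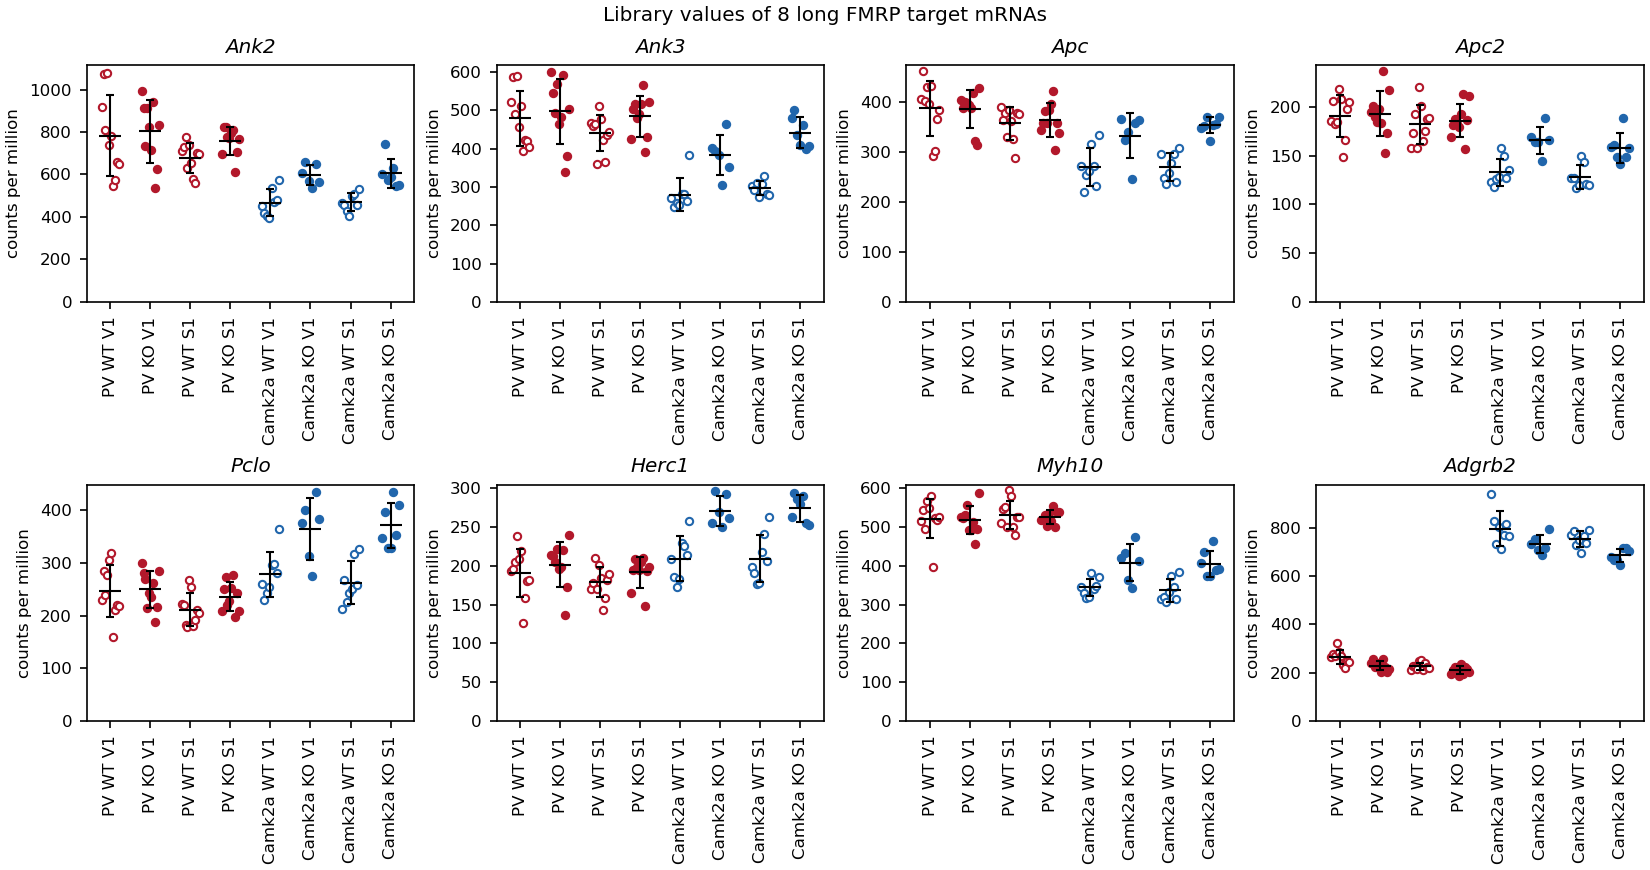
CPM (vertical axes, from 0) of 8 members in each library, by class, genotype and area; open points are WT, filled points KO, red PV and blue Camk2a, and black marks give mean and SD. In Camk2a neurons the KO libraries of Ank3 stood at 398.3 to 501.7 CPM in S1 above 274.2 to 329.4 CPM in WT, while PV libraries of the genotypes overlapped for all 8 genes.

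In excitatory neurons of V1 the same direction was present with fewer calls. The difference was positive for 34 of 40 members with a median of 0.17, and 2 members were called higher and 0 lower, where 0.62% of the genes tested were called higher. Apc2 went from 117.9 to 157.7 CPM (median 127.4) in 8 WT libraries to 144.7 to 188.1 CPM (median 164.7) in 6 KO libraries, a log2 fold change of 0.31 ± 0.0729 (adjusted p = 0.0495, edgeR). Herc1 went from 172.2 to 257.9 CPM (median 210.8) to 250.4 to 296.1 CPM (median 265.5), a log2 fold change of 0.37 ± 0.0881 (adjusted p = 0.04996, edgeR). Both overlapped between genotypes and stood just under the threshold, and both were also among the 9 called in S1. Most settings that left out a library ended these calls: Apc2 kept its call in 2 and Herc1 in 3 of 14 fits that left out 1 library. The test of whether the genotype difference differed between areas called 0 members in Camk2a neurons, where 0% of all genes tested were called, and 0 members had an unadjusted p under 0.05. The smallest p was that of Itpr1, at -0.22 for V1 minus S1 (adjusted p = 0.9998, edgeR), followed by Ank3 at -0.15 and App at -0.11.

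When V1 and S1 counts were summed so that each animal counted once (6 KO and 7 WT animals), 36 of 40 members were positive in Camk2a neurons with a median of 0.19. The 6 called members, Ank2, Ank3, Apc, Apc2, Pclo and Herc1, were all higher in KO, where 2% of the genes tested were called higher, and all 6 were among the 9 of S1. Ank3 differed by 0.52 ± 0.0787 (adjusted p = 0.00435, edgeR) and stood above the WT mean in 6 of 6 KO animals. Herc1 differed by 0.40 ± 0.0903 (adjusted p = 0.0277), Apc by 0.36 ± 0.0844 (adjusted p = 0.0305) and Apc2 by 0.31 ± 0.0732 (adjusted p = 0.0305), with 6 of 6 animals on that side for each. When each area's library entered separately, with animal as a replicate block (limma-voom), 15 members were called, all higher, where 9.1% of all genes tested were called in either direction. By role, the median difference was 0.32 over the 3 presynaptic genes, 0.28 over the 4 genes of the membrane skeleton, 0.28 over the 6 ubiquitin ligases and 0.25 over the 8 microtubule and actin linkers. It was 0.08 over the 5 adhesion receptors and 0.12 over the 4 regulators of small GTPases. The 2 nuclear and RNA regulators had the largest median, 0.44, from values of 0.08 and 0.79. The 3 transport motors had 0.16, the 2 calcium release channels 0.10 and the 3 other surface and matrix proteins 0.07.

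Members that did not follow were few. Adgrb2, Celsr3, Itpr1 and Bcan had negative differences in Camk2a animals, of -0.10, -0.06, -0.09 and -0.17, and none was called. Hivep2, a transcription factor named here because its value was the largest after the values were seen, had 0.79 ± 0.305 (adjusted p = 0.156, edgeR). Its KO libraries of S1 spread from 214.0 to 664.9 CPM against 163.6 to 311.4 CPM in WT, so that KO libraries both overlapped WT and far exceeded it. Dync1h1, the heavy chain of cytoplasmic dynein, had 0.47 ± 0.124 (adjusted p = 0.0501, edgeR).

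**Figure D2:**
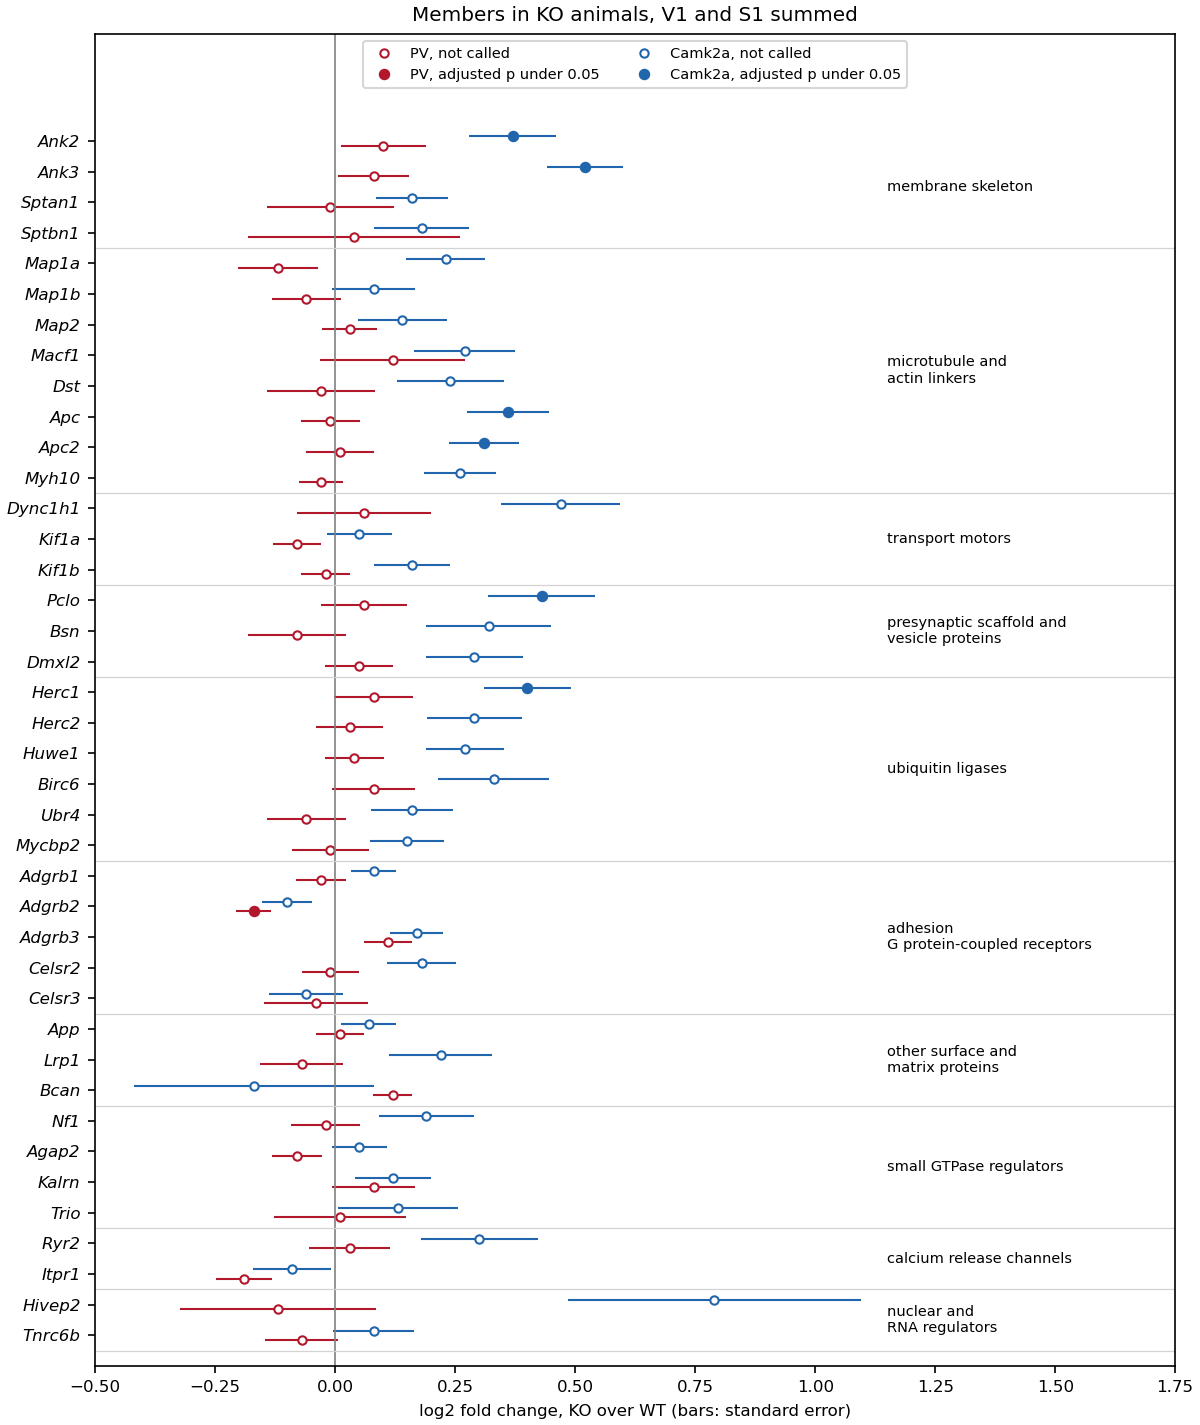
Log2 fold change of KO over WT (horizontal axis) for the 40 members, ordered by role, over animals with summed V1 and S1 counts; points are estimates, bars 1 standard error, filled points adjusted p under 0.05, red PV and blue Camk2a. In Camk2a neurons 36 of 40 points lie above 0 and 6 are filled, and in PV neurons 19 lie above 0 and 1, Adgrb2, is filled below 0.

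The number of calls in Camk2a neurons depended on which animals entered. Without Camk2a animals 3, 18 and 19, 5 members were called in S1, 0 in V1 and 1 over summed animals, with medians of 0.19, 0.14 and 0.18, and 1.91%, 0.0953% and 0.783% of all genes were called in either direction. Without Camk2a animals 16 and 23, the counts were 2, 0 and 1, with medians of 0.18, 0.14 and 0.16, and the shares of all genes 0.655%, 0.0638% and 0.531%. Without Camk2a animal 24, a WT animal whose S1 library was the one library of a second batch, 18 members were called in S1, 5 in V1 and 12 over summed animals, and the shares of all genes called were also higher, at 10.5%, 2.26% and 8.06%. Left out in turn, single libraries gave 4 to 18 called members in S1, 0 to 7 in V1 and 1 to 12 over summed animals. The shares of all genes called in these fits were 1.62% to 10.5%, 0.178% to 2.97% and 1.4% to 8.06%. Between 32 and 37 of the 40 members were positive in each such fit. In S1, leaving out animal 7 or 16 left 4 called members (1.76% and 1.62% of all genes) and animal 15 left 5 (1.92%). Over summed animals, leaving out animal 7, 15, 16 or 23 left 1 (1.4% to 1.63% of all genes). Leaving out animal 4 left 2 (2.19%) and animal 3 or 18 left 3 (2.88% and 2.93%). Ank3 and Apc kept their S1 call in all 15 fits without 1 library and under all 9 other settings.

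In inhibitory neurons the members lay on both sides of 0. In PV neurons 14 of 40 members were positive in V1 (median -0.03) and 23 in S1 (median 0.01). By edgeR 0 members were called in either area, and 4 in V1 and 3 in S1 had an unadjusted p under 0.05, where 0.191% of genes tested were called in V1 and 0.77% in S1. DESeq2 called 1 member and 0.696% of all genes in V1, and 0 members and 1.94% of all genes in S1. By edgeR 0 members were called in either area without PV animals 9, 22 and 24, and 0 without PV animal 11. The smallest p values were those of Adgrb2 (-0.23, adjusted p = 0.0971), Bcan (0.14) and Itpr1 (-0.19) in V1 and of Adgrb2 (-0.13, adjusted p = 0.187), Itpr1 (-0.20) and Ank2 (0.14) in S1. Ank3, which led the change in excitatory neurons, held 360.9 to 511.4 CPM (median 450.3) in WT PV libraries of S1 and 391.8 to 564.9 CPM (median 497.0) in KO, with wide overlap. Pclo held 177.5 to 267.1 CPM in WT and 198.1 to 276.8 CPM in KO there. Over summed PV animals the 95% interval of the difference was -0.06 to 0.23 for Ank3 and -0.13 to 0.11 for Apc.

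Over summed PV animals (9 KO and 10 WT), 1 member was called, and it was lower, where 1.05% of genes tested were called lower. Adgrb2 encodes BAI2, an adhesion G protein-coupled receptor with thrombospondin repeats that is found at synapses. It differed by -0.17 ± 0.0361 (adjusted p = 0.0132, edgeR), a ratio of 0.886, and 0 of 9 KO animals stood above the WT mean. In V1 its level was 222.0 to 323.5 CPM (median 267.4) in WT and 203.8 to 256.6 CPM (median 227.8) in KO. In S1 it was 212.1 to 252.3 CPM (median 223.9) in WT and 186.5 to 234.6 CPM (median 213.9) in KO, so the groups overlapped in both areas. Without PV animals 9, 22 and 24 the difference was again -0.17 but its adjusted p was 0.0728. The call held in all 19 fits that left out 1 animal. Adgrb2 was also below the WT mean in 7 of 7 KO libraries of Camk2a neurons in S1 (-0.13 ± 0.0470, adjusted p = 0.126, edgeR), without a call. The genotype difference in PV neurons was called as different between areas for 0 members, and 0% of all genes were called. An unadjusted p under 0.05 was found for 0 members, with Adgrb2 (-0.09), App (0.07) and Bsn (-0.15) nearest. That fit did not pair the 2 libraries of an animal. With the animal as a replicate block 0 members were called too. Without PV animals 9, 22 and 24, 15 members were positive (10 with them), with a median of -0.01 (-0.03 with them) and 0 called.

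The difference between the classes was tested directly, as the genotype difference of Camk2a neurons minus that of PV neurons over summed animals. It was positive for 38 of 40 members, with a median of 0.20, while 47.4% of all genes were positive. Of 745 other genes over 8 kb 73.3% were positive (median 0.10), and of 76 further commonly cited FMRP targets 85.5% (median 0.11). Of genes up to 1 kb 15.8% were positive (median -0.16). Whether the members differ from other long genes in this test was not tested. By edgeR 0 members were called, and 13 had an unadjusted p under 0.05, where 0.832% of all genes tested were called. Ank3 came nearest, at 0.43 with a 95% interval of 0.21 to 0.66 (adjusted p = 0.0617), then Myh10 at 0.29 (adjusted p = 0.0992) and Apc at 0.36 (adjusted p = 0.106). DESeq2 called these 3, and 1.52% of all genes. Without Camk2a animals 3, 18 and 19 the median was 0.17, with 38 positive and 0 called, where 0.524% of all genes were. The classes come from different Cre lines and different animals, so line and class cannot be told apart.

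In excitatory neurons the genotype difference ran with transcript length across the transcriptome. Among genes that are not members, the median Camk2a difference over summed animals was -0.15 for 797 genes with transcripts up to 1 kb, -0.05 for 2812 genes of 1 to 2 kb, 0.02 for 5759 genes of 2 to 4 kb, 0.05 for 1083 genes of 6 to 8 kb and 0.11 for 314 genes over 10 kb. The 24 members over 10 kb had a median of 0.26. The 6 members of 8 to 10 kb had a median of 0.15, against 0.09 for other genes of that length. In PV neurons the same bins of other genes ran from 0.01 at the short end to -0.02 at the long end, and members over 10 kb had a median of -0.01.

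Ank3, at 7404 nt in its annotated transcript with the longest coding sequence, lay above most of its length bin of 6 to 8 kb. The upper quartile of other genes there was 0.16 and its own difference 0.52. Its bin, and its value below with the length trend removed, rest on that 1 transcript, and other isoforms were not examined. The bins of all other genes likewise rest on 1 annotated transcript each. Across the 40 members, Spearman's rho between the Camk2a difference and transcript length was 0.47, and with coding GC content -0.41. Over 14112 genes the same values were 0.26 and -0.11. Genes share their libraries and are not independent replicates, so these values are descriptions of the same 13 animals.

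**Figure D3:**
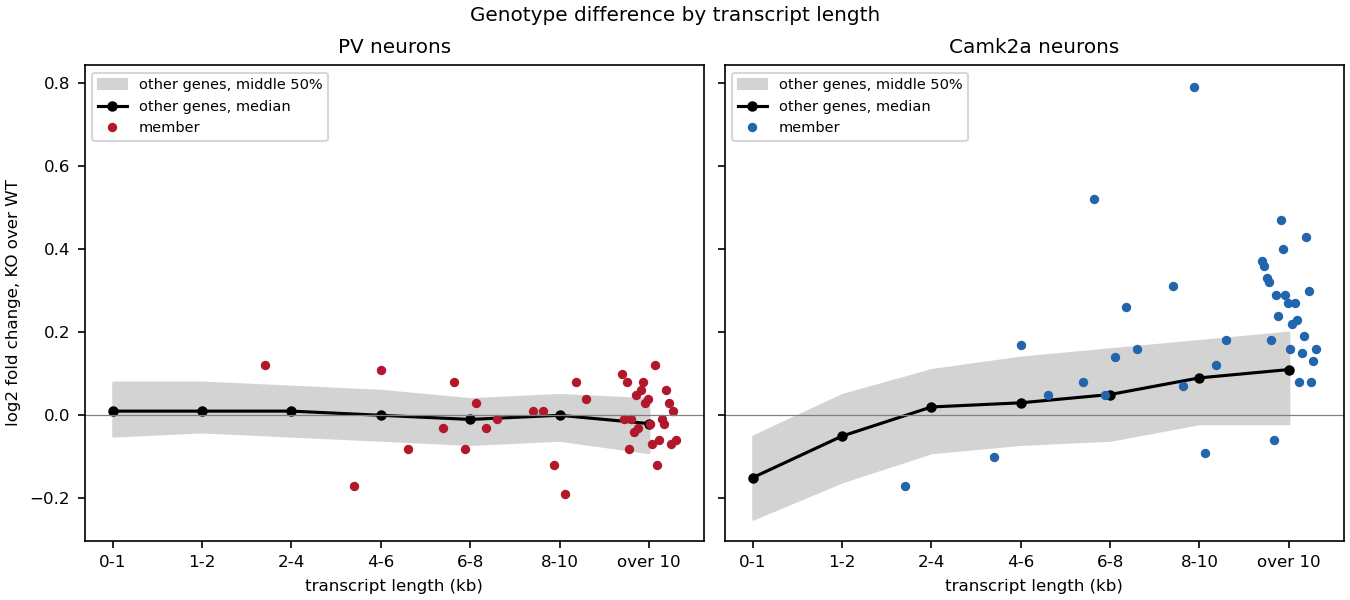
Log2 fold change of KO over WT over summed animals (vertical axis) by transcript length in kb (horizontal axis); black points are medians and grey bands the middle 50% of genes that are not members, coloured points are members. The black line climbs from -0.15 to 0.11 in Camk2a neurons and stays between 0.01 and -0.02 in PV neurons, and most members over 10 kb lie in or above the grey band in Camk2a neurons.

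The members were also tested after the trend of each library on transcript length was removed. In Camk2a neurons of S1, 28 of 40 stayed positive with a median of 0.06, and 7 were called higher and 2 lower, while 5.49% of all genes were then called in either direction. Ank3 (0.47), Ank2 (0.22), Apc (0.26), Myh10 (0.19), Pclo (0.31) and Herc1 (0.25) were called in both fits, Dmxl2 (0.17) in this one, and Map1a, Apc2 and Huwe1 without it. Adgrb2 (-0.18) and Celsr3 (-0.23) were called lower. Over summed animals 10 were called higher and 2 lower, the latter Adgrb2 (-0.14) and Itpr1 (-0.20), and the median was 0.08 with 32 positive. Adgrb2 (-0.16) and Itpr1 (-0.17) were also the 2 members called, both lower, in PV animals under this setting. Itpr1 encodes the inositol trisphosphate receptor that releases calcium from the endoplasmic reticulum.

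The shift could be read library by library. For each library, the median shift of the members from the WT mean of its class and area was taken relative to that of all genes. In Camk2a neurons of S1 it was 0.12 to 0.50 (median 0.20) in 7 KO libraries and -0.23 to 0.21 (median 0.01) in 8 WT libraries. In V1 it was -0.06 to 0.34 in KO and -0.21 to 0.17 in WT, so the genotypes overlapped in both areas. The 659 other genes over 8 kb went with them, at 0.04 to 0.34 in KO and -0.14 to 0.21 in WT in S1, and genes up to 1 kb went the other way, at -0.70 to -0.01 in KO and -0.19 to 0.11 in WT. The KO library of animal 4 held both extremes of S1, with 0.50 for members and -0.70 for short genes. Without it, 10 members were called in S1 and 2 over summed animals, with medians of 0.15 and 0.13. The shares of all genes called were 4.08% and 2.19%. RNA integrity of single libraries was not analysed here, and the labels give only a minimum score of 7. The part of RNA quality in the length trend was not tested.

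**Figure D4:**
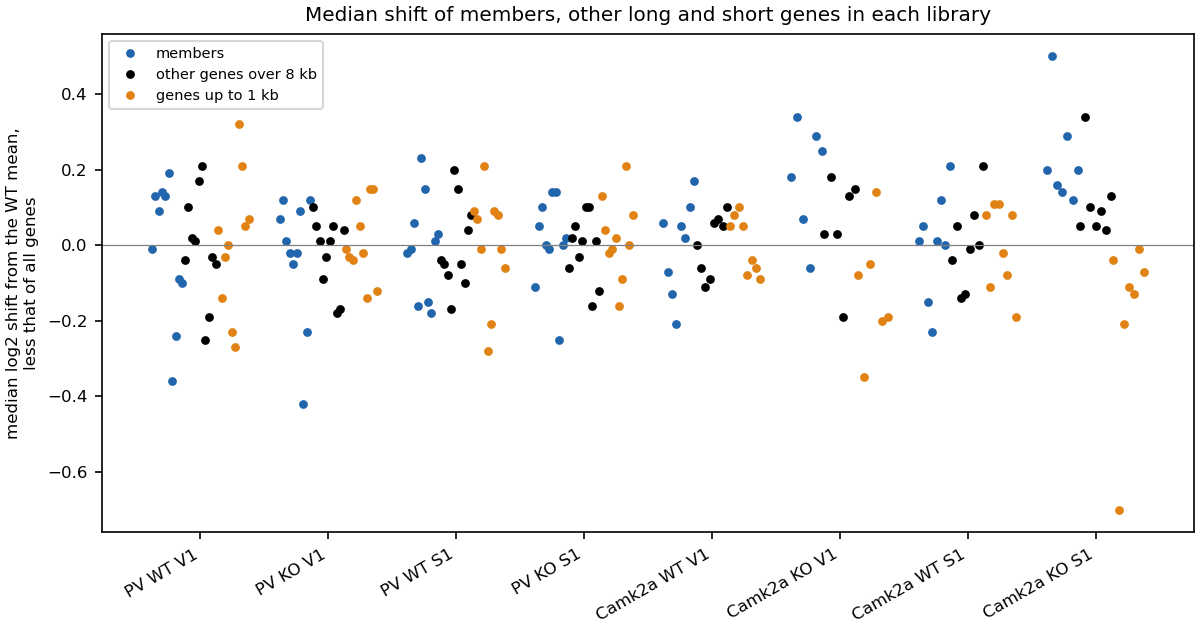
Median log2 shift of each library from the WT mean of its class and area, less that of all genes (vertical axis), for members (blue), 659 other genes over 8 kb (black) and 652 genes up to 1 kb (orange), 1 point of each colour per library. In Camk2a KO libraries of S1 members lie at 0.12 to 0.50 and short genes at -0.70 to -0.01, while in PV libraries the members of both genotypes scatter around 0, from -0.42 to 0.23.

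Of 76 further commonly cited targets, 62 (81.6%) were positive in Camk2a neurons of S1 with a median of 0.08. Of the 76, 4 were called higher, among them Plec (0.39), Rptor (0.32) and Myo5a (0.31), where 1.99% of all genes tested were called higher. In PV neurons of S1 35 of the 76 were positive, with a median of -0.01. The 703 tested genes over 8 kb that are not members had a median of 0.12 in Camk2a neurons of S1, and 74.5% were positive. Of them 47 were called higher and 5 lower, where 313 of all 15691 genes tested were called higher and 328 lower. Whether the 76 targets differ from other long genes was not tested.

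Several lists of markers of other cells had mostly negative KO differences in Camk2a pulldowns. Of 12 PV interneuron markers, 11 had negative differences over summed animals (median -1.06), with 0 called. Of 8 astrocyte markers 4 were positive over summed animals (median -0.01), with 2 called lower, and 2 were positive in S1 (median -0.04). Their sum was 122.3 to 163.2 CPM in WT and 82.7 to 116.6 CPM in KO libraries of S1, without overlap, and 1 of 8 was called lower there. Of 8 oligodendrocyte markers 8 had negative differences there, with 1 called. Of 8 microglial markers 5 and of 4 oligodendrocyte precursor markers 3 were positive over summed animals, with 0 called. Of 11 excitatory markers 5 were positive over summed animals, with a median of -0.01. The part of these cells in the members' differences was not tested. Without the animals rich in PV markers 36 of 40 members were positive in S1, and the called members numbered 5 in S1 (9 with them), 0 in V1 (2 with them) and 1 over summed animals (6 with them).

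In WT mice the classes themselves differed for most members. Of 40 members, 18 were called higher in PV than in Camk2a neurons of V1 and 13 lower, where 39.8% of the genes tested were called higher and 37.5% lower. In S1, 16 were higher and 16 lower, against 39.1% and 38.1% of the genes tested. These shares are near those of all genes. Without the WT animals rich in PV markers (18 and 19), 17 were higher and 16 lower in V1 (median 0.04), and 16 higher and 18 lower in S1 (median -0.07). In both areas together, 16 members were higher in PV and 13 lower in PV, and Sptan1, Sptbn1, Dmxl2, Herc2, Mycbp2 and Hivep2 were called in neither.

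Kalrn, Agap2 and Adgrb2 were the members most tilted to excitatory neurons. Kalrn encodes kalirin, a guanine nucleotide exchange factor of dendritic spines, and held 1020 ± 118 CPM (SD, n = 8) in WT Camk2a and 224 ± 54.4 (n = 10) in WT PV libraries of V1, a log2 difference of -2.22 ± 0.103 (adjusted p = 2.43e-13, edgeR). Agap2, a GTPase-activating protein for Arf that also binds phosphoinositide 3-kinase, had 1600 ± 140 and 467 ± 79.9 CPM, a difference of -1.84 ± 0.0817 (adjusted p = 6.64e-14). Adgrb2 had 797 ± 70.9 and 264 ± 29.0 CPM, a difference of -1.66 ± 0.0612 (adjusted p = 4.10e-15), and its relative Adgrb1 had a difference of -1.04 ± 0.0792. None of these 4 overlapped between classes. In S1 the differences were -2.60 for Kalrn, -1.99 for Agap2, -1.79 for Adgrb2 and -1.10 for Adgrb1, also called.

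Bcan, Macf1 and Dst tilted to PV neurons. Bcan encodes brevican, a proteoglycan of perineuronal nets, which surround PV neurons and whose components glia also make. It had 99.2 ± 8.88 CPM (n = 10) in PV and 13.7 ± 5.55 (n = 8) in Camk2a libraries of V1, a log2 difference of 2.78 ± 0.206 (adjusted p = 1.05e-09, edgeR). Macf1 (1.45) and Dst (1.17), the plakins that join actin to microtubules, and the axonal kinesin Kif1a (0.51 ± 0.0563, adjusted p = 7.66e-08), Myh10 (0.52 ± 0.0596, adjusted p = 1.18e-07) and Ank3 (0.72 ± 0.0860, adjusted p = 2.30e-07) were higher in PV too. Of the 8 microtubule and actin linkers 7 were called higher in PV neurons and 1, Map2, lower, in each area. Map2 marks dendrites and had 734 ± 79.9 CPM in PV and 1270 ± 105 CPM in Camk2a libraries of V1. Markers of glia and vascular cells were mostly higher in PV libraries of V1 too. Median differences were 1.58 over 8 astrocyte, 2.13 over 4 oligodendrocyte precursor and 1.54 over 8 oligodendrocyte markers. They were 2.3 over 8 microglial and 1.84 over 8 tested vascular markers. In each of the astrocyte, microglial and vascular lists 1 marker was called lower. The part of these cells in Bcan, Macf1 and Dst was not tested.

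Per kb of transcript, the most abundant members in WT PV neurons of V1 were Kif1a at 331.5 ± 28.2 CPM per kb (SD, n = 10), Map1a at 276.4 ± 43.3 and App at 259.5 ± 18.9. Map1a and App lay within 1 SD of each other. These levels and their order rest on 1 annotated transcript per gene, whose 3' untranslated part ran from 3 nt to 11612 nt over the members. In WT Camk2a neurons of V1 the order was App at 305.6 ± 14.1 CPM per kb (n = 8), Agap2 at 283.6 ± 24.8, Kif1a at 220.7 ± 16.8 and Map2 at 202.5 ± 16.7. Celsr3, a planar polarity cadherin, was lowest in PV neurons at 5.07 ± 1.31 CPM per kb. Levels within the set thus spanned a wide range, and the giant ligase Birc6 (6.44 ± 0.913 CPM per kb in PV) and Tnrc6b (5.19 ± 0.744), a GW182 protein of the microRNA pathway, stood close to Celsr3.

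**Figure D5:**
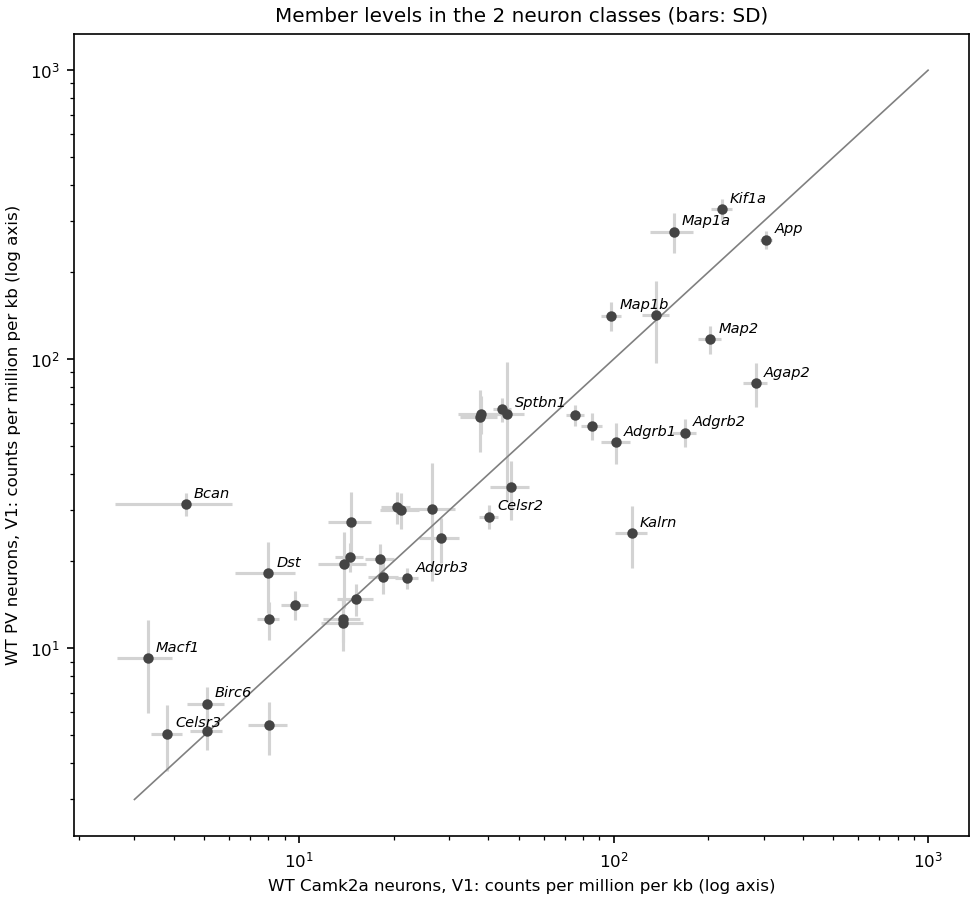
Mean level of the 40 members in WT V1 as CPM per kb of transcript, Camk2a neurons on the horizontal and PV neurons on the vertical axis (both log axes); bars are SD over 8 and 10 libraries and the line marks equal levels. Kalrn, Agap2 and Adgrb2 lie far below the line and Bcan, Macf1 and Dst above it.

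Between areas, WT PV neurons had 3 members with higher levels in V1, where 10.7% of the genes tested were called higher. Agap2 had 467 ± 79.9 CPM (n = 10) in V1 and 349 ± 30.2 (n = 10) in S1, a log2 difference of 0.38 ± 0.0716 (adjusted p = 0.00584, edgeR). Celsr3 differed by 0.42 ± 0.102 (adjusted p = 0.0106) and Adgrb2 by 0.18 ± 0.0489 (adjusted p = 0.0151), each with 9 of 10 V1 libraries above the S1 mean. The median over all 40 members was 0.10, with 31 positive, and other genes over 10 kb had a median of 0.13. With the animal as a replicate block 10 members were called, 8 of them higher, where 26.6% of all genes were called in either direction. Without PV animal 22, the WT animal whose area score went against its labels, 8 were called, where 31.6% of all genes were. Neither count exceeds its share over all genes. Excitatory markers were higher in V1 PV libraries too, 7 of 11 with a call (median 0.38). So were the medians of 8 astrocyte (0.38), 4 oligodendrocyte precursor (0.82), 8 oligodendrocyte (0.24), 8 microglial (0.49) and 9 vascular markers (0.58). Of 12 PV markers 2 were called higher and 6 lower (median -0.17). The part of other cells in these differences was not tested, nor that of excitatory neurons in Agap2 and Adgrb2, which they carry at higher levels.

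In WT Camk2a neurons 0 members were called between areas by edgeR, 4 had an unadjusted p under 0.05, and 0.359% of the genes tested were called. DESeq2 called 2 members and 8.78% of all genes. Agap2 came nearest at 0.27 (adjusted p = 0.0520), with 8 of 8 V1 libraries above the S1 mean, then Adgrb3 at 0.17 and Map1b at 0.18. Without animal 24, whose 2 libraries lay on the side opposite to their area labels, 7 members were called, where 21.8% of all genes were, a larger share than that of the members. Of the 7, 5 were higher in V1 (Agap2 0.31, Celsr3 0.28, Adgrb3 0.21, Map1b 0.21, Nf1 0.19) and 2 were lower (Map1a -0.21, Ank3 -0.16).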

How the data were processed

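Ribosome-bound RNA was pulled down with anti-HA from V1 and S1 of RiboTag mice and read from both ends (100 bases each) after amplification with the Ovation RNA-Seq System V2, per the labels' protocols. Per the submitters' processing notes, the mm10 build and the tools STAR, limma and Salmon were used, and no versions are given. The deposited values are estimated counts per gene as the authors made them (71.1% of them not whole), for 17634 genes in 69 libraries. They were rounded, and totals per library were 27.64 M to 49.11 M. No 2 libraries of a group agreed within sampling noise.

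Genes were filtered with filterByExpr, scaled with TMM and tested with edgeR 4.0.16 (R 4.3.3; robust quasi-likelihood test, sex as a covariate), with Benjamini-Hochberg adjustment over all genes tested and calls at an adjusted p under 0.05. Each KO and WT test used the libraries of 1 class and area, or counts summed over the areas of an animal with both. Tests of genotype by area used all libraries of a class. The main fits between areas and of genotype by area did not pair the libraries of an animal. Fits with the animal as a replicate block were alternatives. DESeq2 1.42.0, limma 3.58.1 and other filters, scalings and sets of libraries were alternatives. The length trend of a library was removed as a lowess offset (span 0.3). Levels are CPM, and CPM per kb of the GENCODE M21 transcript with the longest coding sequence. The fits were tested on simulated data.

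By their labels, V1 and S1 libraries with 1 animal code come from the same animal. Their deviations from the group means correlated with a median r of 0.55 in Camk2a KO, 0.54 in Camk2a WT, 0.18 in PV KO and 0.47 in PV WT animals. The lowest r was 0.33, -0.09, -0.08 and -0.23 in that order. The V1 library correlated best with its own animal's S1 library in 6 of 6, 5 of 7, 3 of 9 and 5 of 10 animals. The members and lists were chosen with earlier results of these data known. Every called member may be named, with full statistics for at most the 4 of smallest p in each direction of a comparison. Where no member was called, the 3 of smallest p are named. Of other genes, Fmr1, markers and up to 3 called FMRP targets are named.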

Additional observations from a re-analysis of the deposited data

Results flagged for a closer look

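In 18 of 320 groups of 6 to 10 libraries (40 members in 8 groups), the highest or lowest library stood farther from its neighbour than Dixon's criterion at the 95% level allows, and chance flags about 1 in 20 groups. Camk2a animal 4 (KO) accounted for 4 of them, animals 24 (WT) and 7 (KO) for 3 each and PV animal 23 (KO) for 2.

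The KO library of animal 4 was highest in S1 for Map2 at 1660 CPM (next 1360), Kif1b at 1030 CPM (next 838) and Birc6 at 110 CPM (next 87.7), and in V1 for App at 2810 CPM (next 2520). Animal 7 was highest among KO libraries for Macf1 at 99.6 CPM (next 86.9) and Apc2 at 189 CPM (next 161) in S1 and for Trio at 213 CPM (next 164) in V1. Animal 6 was lowest for Apc in KO libraries of V1, at 245 CPM (next 324).

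Animal 24 was highest among WT Camk2a libraries for Ank3 at 384 CPM (next 283) and Kalrn at 1270 CPM (next 1050) in V1 and for Nf1 at 119 CPM (next 93.9) in S1. Animal 18, rich in PV markers, was lowest for Map2 in WT libraries of V1, at 1030 CPM (next 1230).

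Among PV libraries, animal 23 (KO) was lowest in S1 for Kif1a at 1540 CPM (next 1760) and Dmxl2 at 144 CPM (next 178). Animal 21 (WT) was lowest for Myh10 in V1, at 396 CPM (next 494). App was highest at 2670 CPM (next 2280) in S1 of animal 3 (WT) and at 2590 CPM (next 2330) in V1 of animal 25 (KO). Agap2 was highest in S1 of animal 22 (WT), at 422 CPM (next 370), an animal whose area score went against its labels.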

How the results depend on the processing

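No member changed direction past the threshold under any alternative run. Called members in the genotype comparison of Camk2a neurons numbered 9 in S1, 2 in V1 and 6 over summed animals. DESeq2 called 17, 6 and 10 (9.24%, 5.5% and 10.3% of all genes), and 14 and 4 were called in S1 and V1 without the sex term (6.31% and 1.82%). Scaling by RLE called 1 in V1 and no filter on low counts 0. With the length trend removed, 7 were called in V1 and 12 over summed animals (2.93% and 7.09%). Without the animals rich in PV markers the counts were 5, 0 and 1, and without those whose Y-linked genes go against the labelled sex 2, 0 and 1. Batch 1 alone gave 18 in S1 and 12 over summed animals (10.5% and 8.06%). Leaving out animal 24 as well as the animals rich in PV markers, an alternative chosen after seeing the data, gave 14 in S1 and 0 in V1 (5.15% and 0.154%).

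Leave-one-out fits called 4 to 18 members in S1, 0 to 7 in V1 and 1 to 12 over summed Camk2a animals. They called 1.62% to 10.5%, 0.178% to 2.97% and 1.4% to 8.06% of all genes. In PV neurons they called 0 to 1 in V1, 0 in S1 and 1 over summed animals. The shares of all genes there were 0.122% to 0.342%, 0.503% to 1.11% and 0.839% to 1.49%. In PV V1 DESeq2 and removal of the length trend called 1 each, and that removal called 1 in PV S1 and 2 over summed PV animals, where leaving out PV animals 9, 22 and 24, whose area score went against their labels, called 0. DESeq2 called 3 members in the difference between classes.

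The animal paired the areas. With the animal as a replicate block, 15 members were called over Camk2a animals (9.1% of all genes) and 10 between areas in WT PV neurons (26.6%; 3 members without it). The block left the counts at 1 over PV animals, and at 0 between areas in WT Camk2a neurons and in both tests of genotype by area. Between areas, DESeq2 called 6 in PV and 2 in Camk2a neurons (24.9% and 8.78%), and 8 were called in PV neurons without animal 22 (31.6%). In Camk2a neurons 1 was called without the sex term (2.47%), 5 in Batch 1 alone (17.5%) and 7 without animal 24 (21.8%), the last chosen after seeing the data. The cause of these changes was not tested. At 6 to 10 libraries a group, members with differences near 0.3 lay on both sides of the threshold.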
